A study of Homo sapiens with 5 samples.

Results

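The MHC class II genes HLA-DRA, HLA-DPA1, HLA-DMA, HLA-DMB and CD74, together with CIITA, were examined across 5 established human pancreatic cell lines. The 6 genes were picked by symbol, and every probe set that the array annotation pairs with 1 of them alone was used. They had 13 such probe sets and were 6 of 19775 genes represented in this way. PANC1, HPAF1, SU86.86 and L3.6 are lines from pancreatic carcinomas, and HPDE is known as an immortalised line of pancreatic duct epithelium, although the labels call all 5 pancreatic cancer lines. The labels name no treatment and no altered gene in any of them. Each line contributed 1 array of total RNA and no second culture, so no level carries an error of its own. The labels state no aim beyond profiling the lines, and the comparison made here is the level of the class II system from line to line.

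MHC class II molecules present peptides from the endosomal pathway to CD4+ T cells. They are pairs of an alpha and a beta chain (DR, DP and DQ), held by the invariant chain CD74 until the chaperone HLA-DM exchanges its remnant for a peptide. The genes are normally read together under CIITA, a coactivator that does not bind DNA itself but joins RFX, NF-Y and CREB family proteins on a conserved promoter module, the X, X2 and Y boxes. Epithelial cells are known to express class II mainly after interferon-gamma, which induces CIITA.

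Of the members, 4 lie in the MHC on chromosome 6 (RefSeq, GRCh38.p14): HLA-DRA at chr6:32439887-32445046, HLA-DMB at chr6:32934636-32941028, HLA-DMA at chr6:32948618-32953097 and HLA-DPA1 at chr6:33064569-33080748. CD74 lies at chr5:150401639-150412910 and CIITA at chr16:10866206-10943021. RefSeq promoter sequences, 250 bases upstream of each start, were matched for 4 of the 6 members. HLA-DRA and CIITA had no entry. The stretch of 54 bases around the X box core is shown for these 4, because it is where CIITA's partner proteins are known to bind. It is written 5′ to 3′ on the gene's strand, which is the minus strand in each case. Capitals mark the X core (letters CNAGNNAC) and, where it follows by 15 to 35 bases, a Y box (ATTGG or, on the other strand, CCAAT).
CD74, chr5:150412944-150412997: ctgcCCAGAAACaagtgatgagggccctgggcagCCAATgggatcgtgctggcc
HLA-DMA, chr6:32953163-32953216: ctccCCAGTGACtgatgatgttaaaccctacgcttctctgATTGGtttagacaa
HLA-DMB, chr6:32941069-32941122: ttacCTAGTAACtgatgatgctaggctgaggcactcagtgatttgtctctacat
HLA-DPA1, chr6:33073701-33073754: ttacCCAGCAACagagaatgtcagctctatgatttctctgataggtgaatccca

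The HLA-DPA1 stretch belongs to the second of its 2 listed starts and lies within the annotated span of the gene. The first start had no X core. The core began 83 bases before the start in CD74, 115 in HLA-DMA, 90 in HLA-DMB and 101 in HLA-DPA1. A Y box followed after 22 bases in CD74 and 28 in HLA-DMA, and none lay within 15 to 35 bases in HLA-DMB or HLA-DPA1. Among 35116 RefSeq promoters, 18% held the X core on the gene's strand and 0.683% held it with a Y box at this spacing. Of the whole upstream windows, 32% held a Y box on either strand and 21.2% an X2 box (TGACG, either strand), and among the 4 members the X2 letters were in HLA-DMB and HLA-DPA1. These matches describe the letters in these windows and say nothing of binding in these cells.

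HLA-DRA and HLA-DPA1 were highest in SU86.86 on every probe set and CD74 on 1 of 3, HLA-DM RNA was highest in HPAF1, and CIITA showed no high level in any line. On the 2 HLA-DRA probe sets SU86.86 was 3.44 times the next line and, where no other line reached the level filter, 5.27 times that filter. On the 3 HLA-DPA1 probe sets, where every other line lay below it, SU86.86 was 4.79, 2.77 and 1.26 times the filter. On CD74 209619_at it was 5.47 times the next line. HLA-DMA was high in both HPAF1 and SU86.86. No difference of these genes passed limma, a linear model with moderated variances, at an adjusted p of 0.05.

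HLA-DRA encodes the alpha chain of HLA-DR, the most abundant class II molecule of professional antigen-presenting cells. Its probe set 208894_at read 739.6 intensity units in SU86.86, against 58.1 in L3.6, 54.4 in HPAF1, 54.1 in HPDE and 43.3 in PANC1. Only SU86.86 lay above 140, the median of all probe sets and the level used as a filter, so ratios to dimmer readings are not given. The second probe set, 210982_s_at, read 664 in SU86.86, against 193 in PANC1, 182 in L3.6, 142 in HPDE and 129 in HPAF1. SU86.86 was again alone at the top, 3.44 times PANC1, while the order of the other lines differed between the probe sets.

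HLA-DPA1, the alpha chain of HLA-DP, had the same leading line on all 3 of its probe sets. Probe set 211990_at read 672 in SU86.86, against 50.1 in HPAF1, 45.2 in L3.6, 41.3 in PANC1 and 36.4 in HPDE. Probe set 211991_s_at read 389 in SU86.86, against 139 in L3.6, 127 in HPAF1, 98.5 in PANC1 and 85.8 in HPDE. The lines other than SU86.86 stayed below the filter on both. The third probe set, 213537_at, was dimmer, with 177 in SU86.86 and 85.8 to 117 elsewhere.

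CD74 is the invariant chain, which guides class II molecules to endosomes and is also a surface receptor for the cytokine MIF. Its probe set 209619_at read 1307 in SU86.86, against 239 in HPAF1, 203 in PANC1, 184 in HPDE and 179 in L3.6. SU86.86 was 5.47 times HPAF1, and the other 4 lines lay close together. The other CD74 probe sets did not show this pattern. Probe set 1567628_at ran from 372 in PANC1 to 435 in L3.6 with SU86.86 at 390.3, and 1567627_at from 119 in SU86.86 to 156 in L3.6. The statement that CD74 was high in SU86.86 therefore rests on 1 of 3 probe sets.

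**Figure D1:**
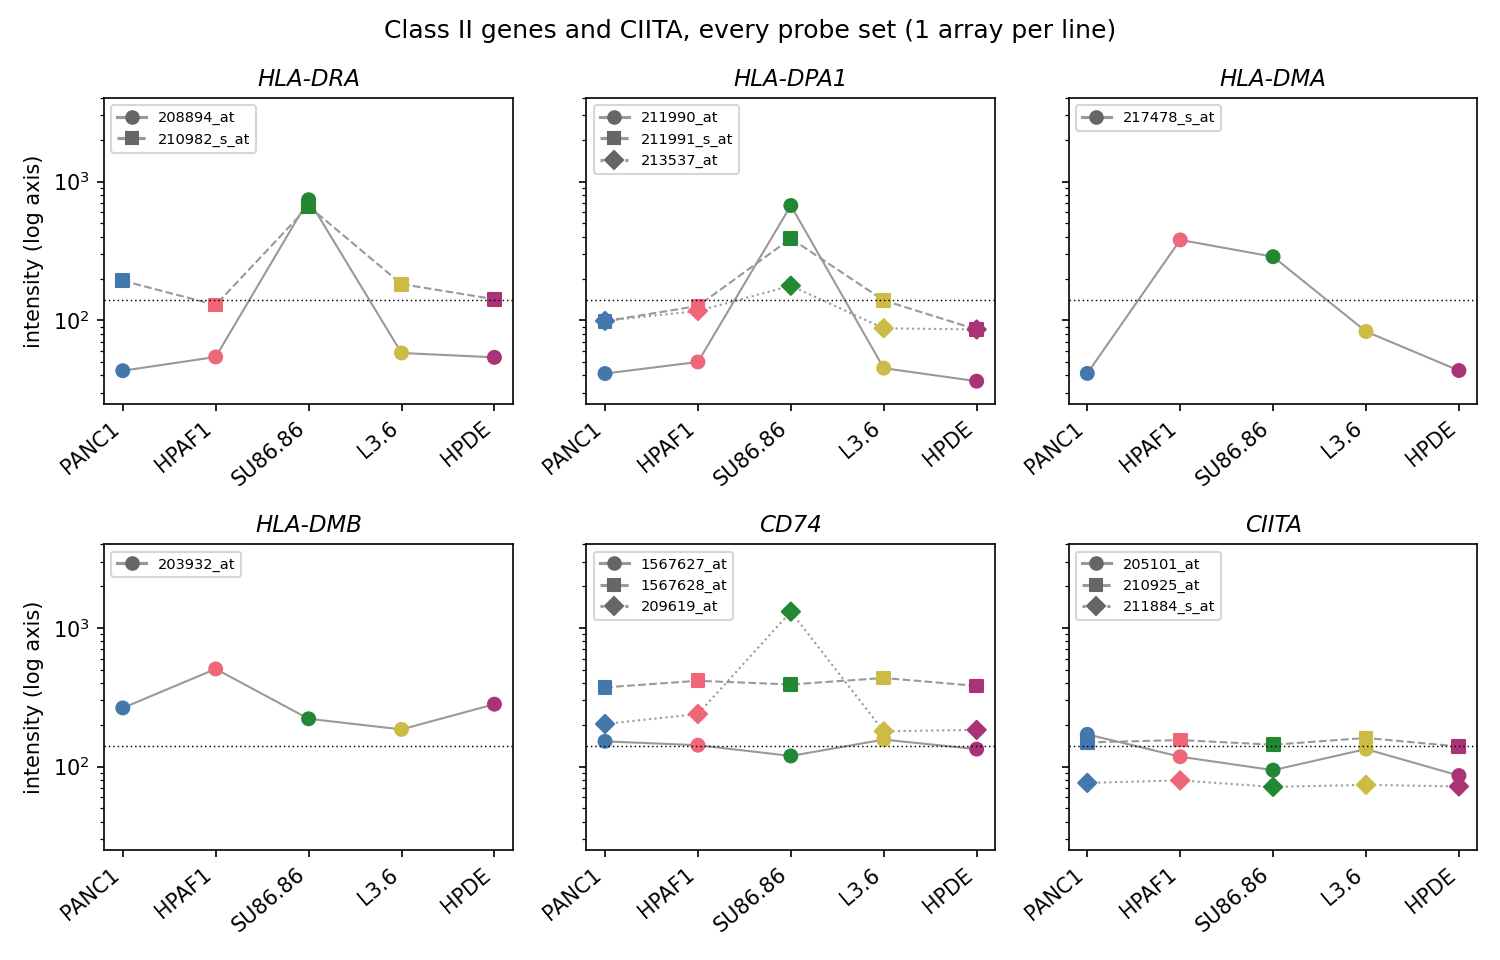
Intensity (log axis) of every probe set of the 6 genes in the 5 lines, 1 array per line and 1 symbol shape per probe set; grey lines join the readings of a probe set and the dotted line is the level filter of 140. SU86.86 stands alone on both HLA-DRA probe sets, on the HLA-DPA1 probe sets and on CD74 209619_at, HPAF1 and SU86.86 stand above the rest for HLA-DMA, HPAF1 leads HLA-DMB, and CIITA stays between 71.3 and 171.

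HLA-DMA and HLA-DMB encode the chains of HLA-DM, which loads peptide onto class II molecules in endosomes. HLA-DMA (217478_s_at) read 379.6 in HPAF1 and 287 in SU86.86, against 83.0 in L3.6, 43.5 in HPDE and 41.4 in PANC1. HPAF1 and SU86.86 were above the filter and the others below it, and HPAF1 was 1.32 times SU86.86. HLA-DMB (203932_at) read 505 in HPAF1, against 281 in HPDE, 264 in PANC1, 185 in L3.6 and 221 in SU86.86. HPAF1 was 1.79 times HPDE, and SU86.86 was the second lowest, so the 2 chains of HLA-DM did not follow the same order of lines. Each had 1 probe set. HPAF1, which led both HLA-DM probe sets, stayed below the filter on the 2 HLA-DRA and 3 HLA-DPA1 probe sets.

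CIITA, the class II transactivator, was dim in every line. Probe set 205101_at read 171 in PANC1, against 134 in L3.6, 118 in HPAF1, 94.2 in SU86.86 and 86.1 in HPDE. On 210925_at L3.6 read 161, HPAF1 155, PANC1 149, SU86.86 144 and HPDE 139.5. The third, 211884_s_at, never reached the filter, with HPAF1 highest at 79.5 and SU86.86 lowest at 71.3. SU86.86, the line with the highest HLA-DRA, was lowest on 1 CIITA probe set and next to lowest on the other 2. At readings this close to the filter a low level of CIITA RNA could not be told from background in any line.

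Over 17388 probe sets whose mean level was below the filter, the median range across the 5 lines was 0.26 on the log2 scale and the 95th percentile 1.31. The CIITA ranges were 0.08, 0.14 and 0.62, and those of the 2 flat CD74 probe sets 0.19 and 0.26. HLA-DRA 208894_at ranged over 2.82, HLA-DPA1 211990_at over 2.79, CD74 209619_at over 2.46 and HLA-DMB over 1.17. The mean levels of CD74 209619_at, CD74 1567628_at, HLA-DMB and CIITA 210925_at were above the filter. The spread of the dimmer probe sets is therefore not a measure for those. Among 9 spiked-in controls the largest SD across the arrays was 0.11, which covers hybridisation and scanning only. Among the lines other than SU86.86, the HLA-DRA 208894_at readings spanned 0.18, and their order on that probe set is not read.

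Each line was set against the mean of the other 4 with limma. Levels here are log2(intensity + 71.1), which understates the difference of dim genes, and for each gene the probe set with the highest mean on that scale was used. In SU86.86, HLA-DRA (210982_s_at) was at 9.52 against a mean of 7.85 in the others, a difference of 1.67 (SE 0.24, limma adjusted p = 0.439). HLA-DPA1 (211991_s_at) differed by 1.33 (SE 0.25, adjusted p = 0.624) and HLA-DMA by 1.05 (SE 0.87, adjusted p = 0.998), and the latter was 1.51 with HPAF1 left out of the fit. HLA-DMB differed by -0.32, which was -0.09 without HPAF1 and -0.48 without L3.6. CIITA and CD74 differed by -0.05 and -0.03. The rule kept the flat probe set 1567628_at for CD74. In HPAF1, HLA-DMA differed by 1.46 (SE 0.72, limma adjusted p = 0.619) and HLA-DMB by 0.91 (SE 0.25, adjusted p = 0.323).

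None of the 6 members passed in any line, by the adjusted limma test. Over all 14894 genes tested, 0% passed in SU86.86 and in L3.6, 0.0269% in PANC1, 0.242% in HPAF1 and 0.0269% in HPDE. In SU86.86 557 genes had an unadjusted p under 0.05, against 744.7 expected from the threshold, and among the members these were HLA-DRA and HLA-DPA1. In HPAF1, 1497 of the 14894 genes had such a p, and HLA-DMB was the 1 member of 6 among them. No member had one in the remaining lines. By size alone, HLA-DRA, HLA-DPA1 and HLA-DMA were at least 2-fold above the mean of the others in SU86.86, 3 of 6 beside 5.29% of all genes. Of these, the probe set kept for HLA-DPA1 reached the filter in SU86.86 alone. In HPAF1 HLA-DMA was, 1 of 6 beside 6.96%. The members' median difference was 0.51 in SU86.86 and 0.05 in HPAF1, against -0.06 and -0.01 over all genes.

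With every probe set fitted as a feature of its own, the differences in SU86.86 were larger on the probe sets that were dimmest elsewhere. HLA-DRA 208894_at was higher by 2.72 (SE 0.19) and HLA-DPA1 211990_at by 2.70 (SE 0.19), both with a limma adjusted p of 0.256. CD74 209619_at was higher by 2.34 (SE 0.22, adjusted p = 0.267). For HLA-DRA and HLA-DPA1 these standard errors rest on readings below the filter in the other 4 lines. Again 0% of the 27659 probe sets passed in SU86.86, and 1143 had an unadjusted p under 0.05. With no level filter, 5 of the 13 member probe sets stood at least 2-fold above every other line in SU86.86 and 0 in any other line, beside 0.952% of all 41091 probe sets in SU86.86. These 5 belong to 3 genes, HLA-DRA, HLA-DPA1 and CD74. With 1 probe set per gene the count was 2 of 6 members, HLA-DRA and HLA-DPA1, beside 0.936% of all 19775 genes. Of the 13, 4 reached the filter in SU86.86 alone, 1 of HLA-DRA and 3 of HLA-DPA1.

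**Figure D2:**
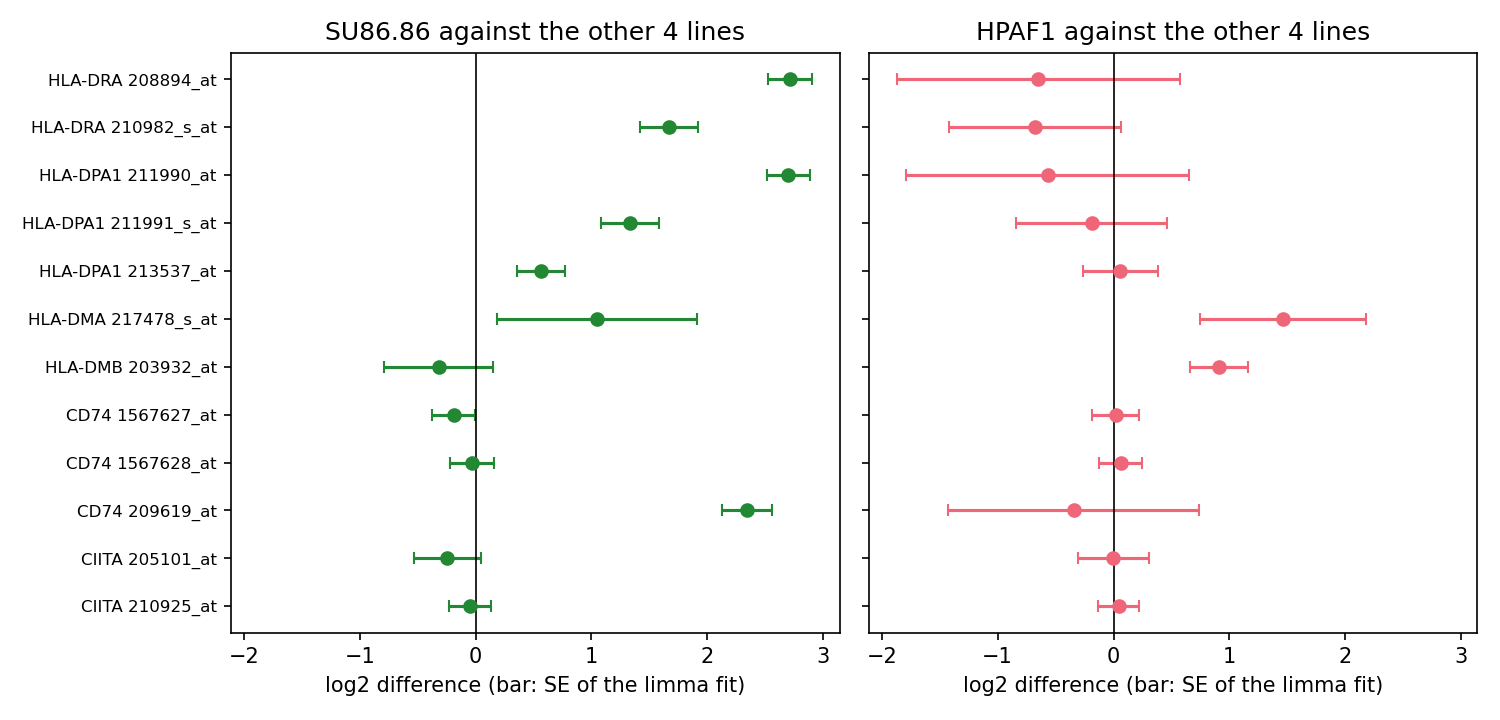
Difference of SU86.86 (left) and of HPAF1 (right) from the mean of the other 4 lines on the log2(intensity + 71.1) scale, for the 12 member probe sets above the level filter; points are the fitted differences and bars their standard error. In SU86.86 HLA-DRA 208894_at, HLA-DPA1 211990_at and CD74 209619_at lie at 2.72, 2.70 and 2.34, and in HPAF1 HLA-DMA and HLA-DMB lie at 1.46 and 0.91.

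Set against HPDE alone, with 1 array on each side and no test, SU86.86 had the most members at least 2-fold above the duct line. These were HLA-DRA, HLA-DPA1 and HLA-DMA, 3 of 6 members beside 8.44% of all genes. The probe set kept for HLA-DPA1, 211991_s_at, reached the filter in SU86.86 alone, so HPDE lay below it there. HLA-DMB in SU86.86 was 0.785 times HPDE. On HLA-DRA 210982_s_at SU86.86 was 4.68 times HPDE. The CD74 ratios were 7.11 on 209619_at, 1.02 on 1567628_at and 0.893 on 1567627_at, where SU86.86 lay below the filter. HPDE was below the filter for HLA-DMA, which stood at 2.05 times the filter in SU86.86 and 2.70 times in HPAF1. HLA-DMA was the 1 member of 6 at least 2-fold higher than HPDE in HPAF1 (7.77% of all genes). In PANC1 and L3.6 no member was 2-fold higher (8.47% and 6.55% of all genes). The members' median difference from HPDE was 0.79 in SU86.86, 0.22 in HPAF1, 0.21 in L3.6 and 0.02 in PANC1.

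Other class II chains were read for 8 of 11 genes listed, and 6 of these passed the filter. HLA-DPB1, the beta chain that pairs with HLA-DPA1, read 522 in SU86.86 on 201137_s_at, against 76.7 in PANC1, 74.6 in L3.6, 62.2 in HPDE and 53.5 in HPAF1. SU86.86 stood alone, as on HLA-DPA1, and the difference was 2.11 (SE 0.20, limma adjusted p = 0.267). This probe set too reached the filter in SU86.86 alone, so the SE rests on dim readings. Its other probe set stayed below the filter. HLA-DRB1, a partner of HLA-DRA, read 379 in SU86.86 and 164 to 227 elsewhere. HLA-DQB1, the beta chain of HLA-DQ, was high in 2 lines. On 211656_x_at it read 529 in SU86.86 and 330.3 in HPDE but 120 to 134 elsewhere, and on 212998_x_at HPDE led with 193 against 139 in SU86.86. These probe sets can match several transcripts by the suffix of their names, and 3 of the 7 HLA-DQB1 probe sets never reached the filter. HLA-DQA1, the alpha chain of HLA-DQ, did not reach it in any line on any of 3 probe sets. HLA-DOA, an inhibitor of HLA-DM, was highest in PANC1 on 206313_at with 344, and its other 4 probe sets did not show this. A further 6 probe sets are annotated to several class II beta or DQ alpha chains and were assigned to no gene, and 5 of them were highest in SU86.86, as were 15.8% of all probe sets with 1 symbol. In 1 of the 6 SU86.86 was at least 2-fold above the next line.

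The factors that bind the class II promoters were read in every line. Of 7 tested, none was 2-fold above or below the mean of the others in SU86.86, where 5.29% of all genes were above and 2.59% below, so a count of none is near the background. RFX5, a subunit of the RFX complex, was at 9.28 in SU86.86 and 9.08 to 9.70 elsewhere. RFXAP, its partner, was at 7.27 in HPAF1, below the filter, and at 8.08 to 9.10 in the others. The NF-Y subunits NFYB and NFYC were lowest in HPAF1, at 8.74 and 9.61, and RFXANK, the remaining RFX subunit, spanned 9.50 to 10.22. Of 10 tested genes of the interferon-gamma route to CIITA, none was 2-fold apart in SU86.86, and IFNG itself was below the filter in each line. IFNGR1, a chain of the interferon-gamma receptor, was at 9.44 in PANC1, 11.51 in HPAF1 and 10.62 in SU86.86, and JAK1, its kinase, was highest in PANC1 at 11.84, with 11.62 in SU86.86, and lowest in L3.6 at 9.86. IRF1, an activator of CIITA, was at 10.18 in HPAF1, 9.67 in SU86.86 and 8.29 in PANC1. PTPN2, a phosphatase that dampens this signal, was highest in HPDE at 11.73. None of these lists had a gene past limma in any line. At an unadjusted p under 0.05 they had RFXAP and NFYB in HPAF1, IFNGR1 and IRF1 in PANC1, USF1 in SU86.86, JAK1 in L3.6 and PTPN2 in HPDE.

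Several genes of antigen processing were highest in HPAF1, the line with the highest HLA-DM. Of 16 tested genes of processing and traffic, 5 were at least 2-fold above the mean of the others in HPAF1 (6.96% of all genes) and 0 in SU86.86 (5.29%, near which 0 of 16 lies). The 5 were LGMN, CTSB, CTSH, CST3 and AP1S1, and CTSH among them was highest in HPDE, not in HPAF1. In HPAF1 and SU86.86 0 of the 16 passed limma, and 4 and 0 had an unadjusted p under 0.05. Of all 14894 genes, 1497 and 557 had such a p. LGMN, the endopeptidase that starts invariant chain removal, read 6548 in HPAF1, 1485 in SU86.86 and 848 to 1353 in the others. The lysosomal protease CTSB read 7892 in HPAF1 on 200839_s_at, against 2924 in PANC1, 2623 in HPDE, 1897 in SU86.86 and 1190 in L3.6. HPAF1 led on all 5 CTSB probe sets, at 1.11 to 2.92 times the next line. AP1S1, an adaptor subunit of vesicle traffic, was at 11.36 in HPAF1 and 9.81 in SU86.86 on the log2 scale. CTSH, a lysosomal aminopeptidase, was highest in HPDE with 2710.3, and read 2213 in HPAF1, 1291 in SU86.86 and 200.3 in PANC1. The list's median difference was 0.30 in HPAF1 and -0.11 in SU86.86, where all genes had -0.01 and -0.06.

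MHC class I genes also stood high in SU86.86, but not in that line alone. Of 11 tested, 7 were at least 2-fold above the mean of the others in SU86.86 (5.29% of all genes), 0 passed limma and 0 had an unadjusted p under 0.05. HLA-B was at 13.94 in SU86.86 and 13.64 in HPDE, and HLA-C at 13.66 and 13.42. The immunoproteasome subunits PSMB8 and PSMB9 were at 11.80 and 11.26 in SU86.86, 10.93 and 10.58 in HPAF1, and 8.96 and 8.70 in PANC1. NLRC5, the transactivator of class I genes and a relative of CIITA, was at 8.48 in SU86.86 and 8.46 in HPDE. In HPDE HLA-DRA 208894_at lay below the filter and 210982_s_at at 1.01 times it. Among 10 tested ligands of T cells, CD274, the inhibitory ligand PD-L1, read 2331 in SU86.86, 411 in HPDE and 29.2 to 130 in the others on 227458_at, and SU86.86 led on its other probe set too. CD70 and TNFSF9, ligands of the TNF family, were at 8.26 and 6.95 in SU86.86, at least 2-fold below the mean of the others, and LGALS9 was highest in HPAF1 at 9.39. CD80, a main costimulatory ligand, stayed below the filter in all lines on the probe set kept for it, and CD86 lay between 7.80 and 8.13. Of the CD74 partners, CD44, which carries its signal, was at 13.17 in PANC1, 12.68 in SU86.86 and 10.65 in HPAF1 on 212063_at. Its other probe sets that passed the filter were highest in SU86.86, but the lead ran from 1.01 to 5.90 times the next line. The smallest lead was on 204489_s_at, with 3437 in SU86.86 and 3411 in PANC1, and the largest on 229221_at, with 2125 and 197. MIF, the ligand of CD74, lay between 13.11 and 13.57. The receptor CXCR4 was highest in L3.6 at 9.23, and CXCR2 was below the filter. In these ligand and partner lists 0 genes passed limma in SU86.86, and CD40 and CD274 had an unadjusted p under 0.05.

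**Figure D3:**
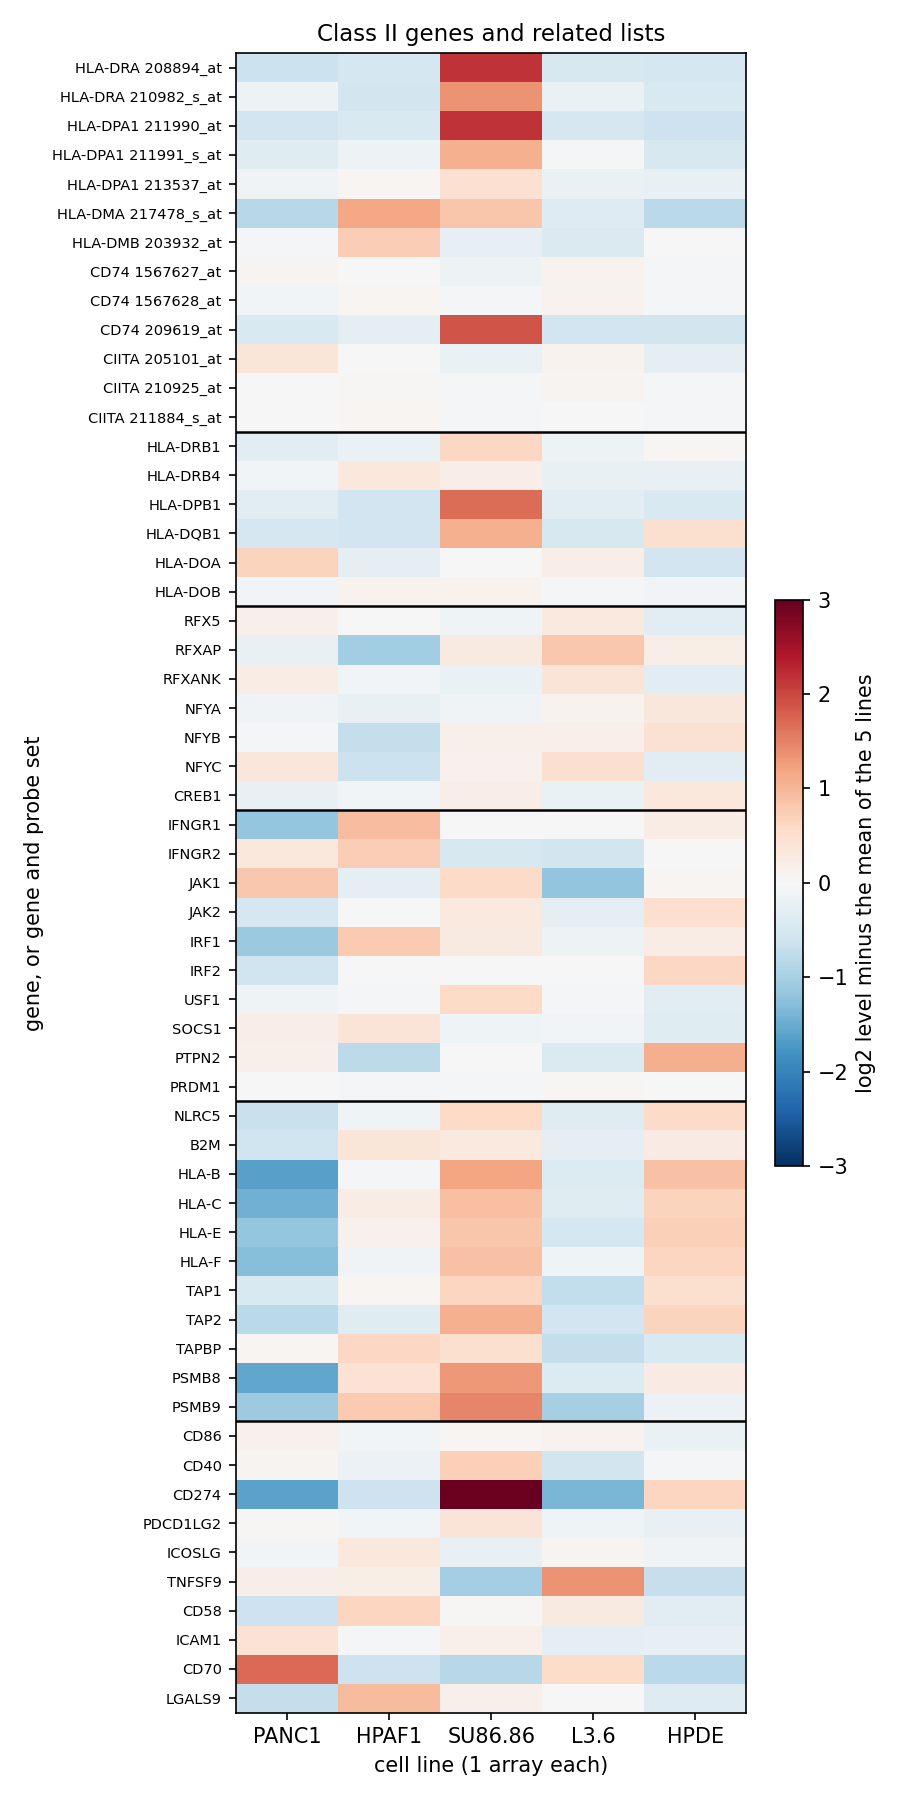
Level of each member probe set (top block) and of the tested genes of 5 related lists, as log2 level minus the mean of the 5 lines (colour), 1 array per line; blocks from the top are the members, other class II chains, promoter factors, the interferon-gamma route, class I genes and T cell ligands. The red SU86.86 column in the first 2 blocks covers HLA-DRA, HLA-DPA1, CD74 209619_at, HLA-DPB1 and HLA-DQB1, while the CIITA rows are near white. Most of the class I block is red in both SU86.86 and HPDE, but TAPBP and PSMB9 lie below the mean in HPDE.

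The lines were checked against markers of duct epithelium and of the leukocytes that normally carry class II. Of 7 epithelial markers, 6 were above the filter in PANC1 and 7 in each other line, but their levels differed widely. Their summed intensity ran from 23402 in PANC1 to 101943 in HPAF1. In PANC1 4 of 7 were at least 2-fold below the mean of the others (5.54% of all genes) and 1 was above (5.38%). KRT7 read 111 in PANC1 and 4486 to 12541 elsewhere, and SOX9 read 171 in HPDE and 597 to 2911 elsewhere. PTPRC, the pan-leukocyte antigen CD45, stayed below the filter on all 5 of its probe sets, with 67.9 as the highest reading of any line. Some other leukocyte markers were above it. In SU86.86 these were 3 of 5 B cell, 1 of 9 myeloid and 2 of 6 T cell markers, on the probe sets kept for the genes. AIF1 (670 to 956), CD22 (419 to 534) and CD3D (274 to 523) were above the filter in every line, and each was highest in HPAF1. The B cell marker CD79A also led in HPAF1, with 312 against 159 to 199 elsewhere. Across 43 probe sets of 21 B cell, myeloid, T cell and pan-leukocyte markers, 0 were at least 2-fold above every other line in SU86.86, a count near the 0.952% of all probe sets. In HPAF1 1 was, the monocyte receptor CD14. The summed intensity of the B cell list was 1003 in SU86.86, its lowest, and 1239 in HPAF1, its highest, and that of the myeloid list ran from 1468 in SU86.86 to 2047 in HPAF1. The part of these markers in the CD14 and HLA-DM readings of HPAF1 was not tested. Arrays of bulk RNA cannot tell apart a few cells with much class II RNA from many cells with little.

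The genes most like HLA-DRA were found by the distance between log2 levels, each centred on its mean over the 5 lines. For the probe set kept for the gene, 210982_s_at, the nearest were DMKN (0.13), LOX (0.22), BEX1 (0.27), ATP11A (0.28) and LINC02915 (0.29). For 208894_at, the HLA-DRA probe set with the widest range, taken after its values were seen, the nearest of all probe sets of other genes was HLA-DPA1 211990_at (0.16), followed by SPOCD1 (0.22), ZNF473 (0.33), ICAM2 (0.33), CD69 (0.34) and ODAPH (0.38). For CD74 209619_at, also chosen afterwards, the nearest were LAPTM5 (0.17), SPOCD1 (0.23), SLCO2A1 (0.27), TNFSF11 (0.30) and SEMA7A (0.32). SPOCD1, near to both probe sets, read 1141 in SU86.86 and at most 151 elsewhere on 235417_at. CD69, an activation antigen of lymphocytes, read 615 in SU86.86 and at most 18.6 elsewhere. LAPTM5, a lysosomal membrane protein of blood cells, read 1906 in SU86.86 and 260.1 to 351 elsewhere on 201721_s_at, but on 201720_s_at 2575 in SU86.86 and 1192 in PANC1. The probe set kept for CD74, 1567628_at, varied little, and its nearest genes were KIAA1614 (0.021), PANX2 (0.031), ACKR5 (0.034), CLDN18 (0.034) and LINC03068 (0.040), which varied as little.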

How the data were processed

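One array of each of 5 lines was used. The deposited table gives 1 linear intensity per probe set and array for 54675 probe sets, and for the step from the authors' scans to these intensities the summary method, background and scaling are not given in the sources used here. Array medians lay between 137 and 143, and their log2 values differed by 0.06, within the 0.25 set for leaving values unscaled. Probe sets with 1 symbol in the platform annotation (41091) were kept, symbols were updated through RefSeq (GRCh38.p14; 41037 matched), and 1801 with several symbols named no gene. Intensities were taken as log2(value + 71.1), the 25th percentile. Genes reaching the median of all probe sets in 1 line were tested across all genes (14894) with limma 3.58.1 in R 4.3.3, each line against the mean of the other 4, with 3 residual degrees of freedom, two-sided, Benjamini-Hochberg adjusted. The p-values measure the spread between lines, not between cultures. The fit was also run on simulated data with the same spread for every gene, unlike the real genes, and the outcome is not given here. The number of arrays limits the precision.

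The members and lists were chosen with earlier results of these data known. Named by rule are the members, the genes of each list with the widest range over the lines (up to 4) or past limma, and the 5 genes nearest to HLA-DRA and to CD74. RFX5, NLRC5, IFNG, CD80, CD86, HLA-DQA1, CD14, PTPRC, CST3 and the genes given for an unadjusted p fall outside it and were chosen after their values were seen. So were the X core letters, the widest-ranging probe sets used for the added distances, the counts without a level filter, the choice of dim probe sets by mean level, and the alternatives that combine these probe sets with another setting.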

Additional observations from a re-analysis of the deposited data

How the results depend on the processing

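No class II member passed limma in any line under any alternative run, and 0 genes passed in SU86.86 and L3.6. Genes passing in PANC1 numbered 4, but 2 without a pseudocount, 8 with no level filter, 0 without probe sets of the x, s and a kinds, 0 with every probe set fitted, and 0 to 0 with another line left out. In HPAF1 the count of 36 became 79 with no filter, 62 with every probe set fitted and 0 to 0 with another line left out. In HPDE 4 became 0 without a pseudocount, 1 with the stricter filter, 1 when a gene's probe sets were averaged, 1 without x, s and a probe sets, and 0 to 0 with a line left out. CD74 in SU86.86 turned from -0.03 to 0.71 with the mean of its probe sets, since 209619_at then enters, and to 0.0043 without L3.6 (from -0.0592 to 0.0043 over the left-out lines). Without x, s and a probe sets HLA-DRA was 2.72 and HLA-DPA1 0.57, as other probe sets were then kept. Without a pseudocount HLA-DMA was 1.73 in SU86.86 and 2.23 in HPAF1. The HLA-DRA, HLA-DPA1 and HLA-DMB differences kept their direction in all 12 alternatives, and HLA-DMA in all 10 that tested it. HLA-DMA was not tested with the stricter filter or without x, s and a probe sets. HLA-DMB in SU86.86 ran from -0.48 to -0.09 over the left-out lines. No paired analysis was possible because the lines carry no shared replicate numbers beyond 1 array each. Readings near the filter limit what can be said of CIITA.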

Other observations

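ICAM2, an adhesion ligand of endothelium and leukocytes, read 1192 in SU86.86 and at most 118 in the others on 213620_s_at, and 577 in SU86.86 and at most 112 in the others on 204683_at.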
